A study of Mus musculus with 16 samples.

Results

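The genes described here were 9 factors that act at the growing end of microtubules or on the terminal tyrosine of tubulin: Mapre1, Mapre2, Mapre3, Clasp1, Clasp2, Clip1, Macf1, Ckap5 and Ttl. They were chosen by name, with no threshold on their values but with earlier results of these data known, and all 9 were found among the 13015 genes of the expression table. RNA was measured by sequencing in NIH/3T3 cells, an established line of mouse fibroblasts. The cells carried either a control siRNA (siControl) or an siRNA that lowers Apc (siAPC), the mouse gene for adenomatous polyposis coli. They were starved of serum, plated for 2 h on a filter with 3.0 µm pores, exposed from below to lysophosphatidic acid (LPA), a lipid that attracts fibroblasts, for 1 h, and fixed in 0.3% paraformaldehyde for 10 min. Protrusions (Ps) were scraped from the underside of the filter and cell bodies (CB) from its top, which with both siRNAs gave 4 groups of 4 libraries, named by siRNA and fraction (siControl CB, for example). Each library thus pooled the protrusions or bodies of many cells, and the knockdown was transient and partial.

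Microtubules grow and shrink mainly at their plus ends, where EB proteins, encoded by the Mapre genes, bind the newly added tubulin and recruit other factors. APC itself is carried at plus ends and binds EB1, the product of Mapre1, and it gathers on microtubules that reach into protrusions of migrating cells. The last residue of alpha-tubulin is a tyrosine that can be removed and put back, and some plus-end proteins, Clip1 among them, prefer tubulin that carries it.

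Values were log2 CPM as deposited, where CPM is the reads of a gene relative to a common library size after the authors' scaling between libraries. Each library held 13466225 to 20296087 reads in listed genes, and the 9 genes held between 171 reads (Clasp2) and 2508 reads (Macf1) in a library. Apc, the target of the siRNA, was listed at log2 2.13, 2.59, 3.54 and 2.17 in the siControl CB libraries against 0.54, 1.42, 1.02 and 0.75 in siAPC CB, and at 3.29 to 3.73 in siControl Ps against 1.33 to 1.90 in siAPC Ps. The groups did not overlap, and siAPC cells kept 31.3% of the control level in CB (adjusted p = 0.000142, limma) and 27.9% in Ps (adjusted p = 3.11e-05, limma). Of the fibroblast markers, Col1a1, Col1a2, Col3a1, Vim and Pdgfrb were high (log2 6.80 or more in every library) and Thy1 had at most 13 reads. Epcam and the leukocyte and neuronal markers looked for were not listed and Pecam1 had at most 12 reads. Cdh1, an epithelial cadherin, had at most 50 reads, but Krt14, an epithelial keratin, stood at log2 7.99 to 8.59. In 4 libraries GC-rich genes had lower values relative to their group, and these are called the 4 low-GC libraries. The measure was the Spearman correlation of GC content with a library's deviation from each gene's mean in its group. It was -0.52 in siControl CB replicate 3 and -0.60 in siControl Ps replicate 2. In siAPC it was -0.58 in CB replicate 2 and -0.65 in Ps replicate 2. The 10238 genes behind each value are not independent replicates. A trend shared by all libraries of a group does not show in this measure. The other 12 ran from -0.04 to 0.54, so they too differed in how values went with GC content. Calls of the 9 genes that change without the 4 low-GC libraries are given both ways. The mitochondrial share of listed reads was 2.18% to 4.16% in Ps and 1.37% to 1.95% in CB, and its part in the results was not tested.

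Each gene's level in every library is plotted by group.

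**Figure D1:**
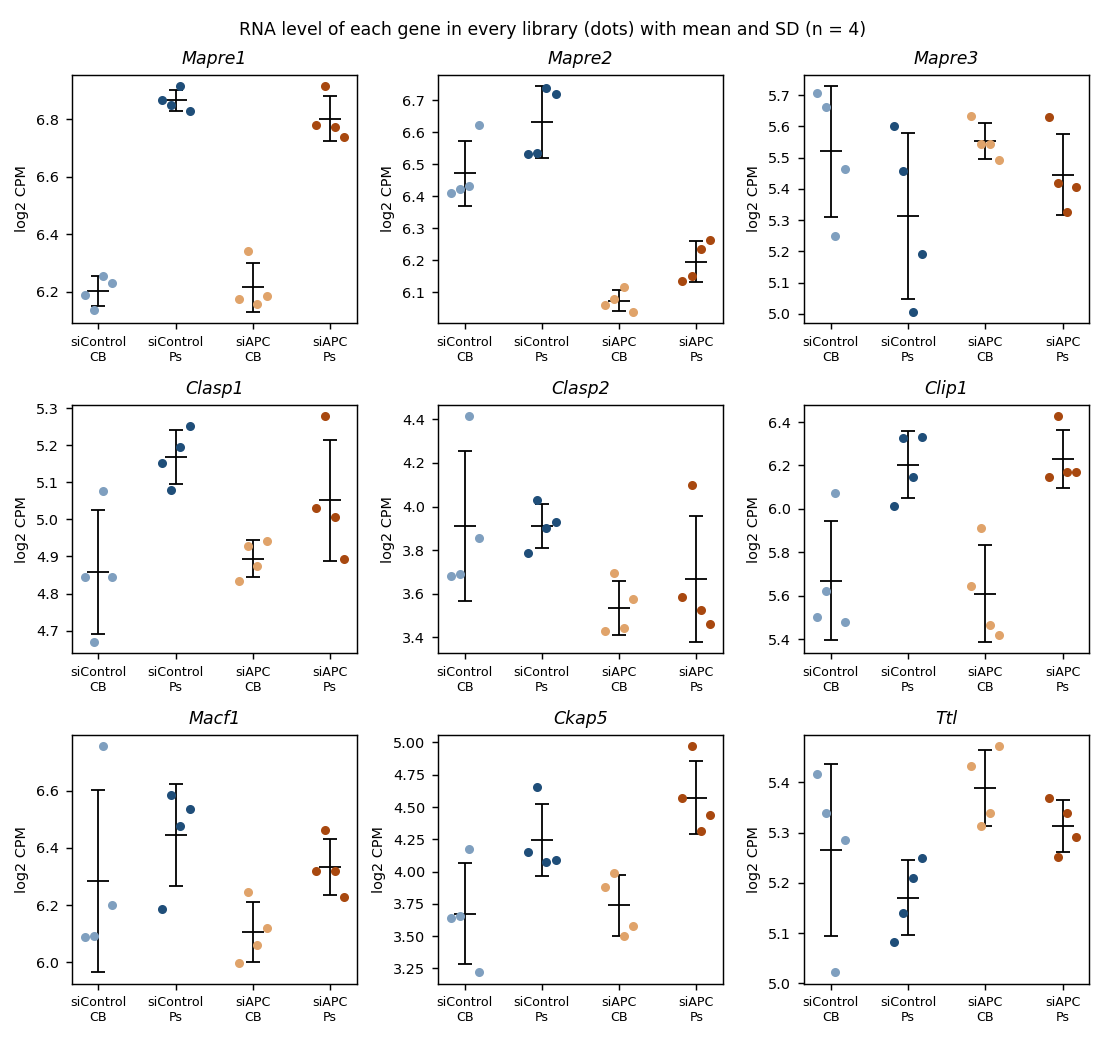
The vertical axis of each panel is the log2 CPM of 1 gene, the horizontal axis the 4 groups, each dot 1 library, and the bars mean and SD (n = 4). Mapre1 is higher in every Ps library than in any CB library. Mapre2 is lower in every siAPC library than in any siControl library of the same fraction. The highest of its group for Mapre1, Clasp1, Clasp2, Clip1, Macf1 and Ckap5 is siControl CB replicate 3.

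How abundant the 9 RNAs were relative to each other was first compared per length, as CPM per kilobase of exon in the mouse annotation. The 3 EB RNAs led this order in siControl CB and siControl Ps. In siControl CB the level was 13.3 CPM per kb for Mapre3, 9.43 for Mapre1 and 8.70 for Mapre2, and the log2 levels behind the latter pair (3.24 ± 0.05 and 3.12 ± 0.10, SD, n = 4) differed by less than the sum of their spreads. Ttl, the ligase that puts tyrosine back on alpha-tubulin, followed at 6.47, and Clip1, a plus-end protein also called CLIP-170, at 4.11. Macf1, a giant protein that crosslinks actin and microtubules, stood at 2.48. Ckap5, a microtubule polymerase also called ch-TOG, at 1.35, Clasp1 at 1.33 and Clasp2 at 0.978 closed the order, with log2 levels of 0.43 ± 0.39, 0.41 ± 0.17 and -0.03 ± 0.35 (SD, n = 4) whose spreads overlapped. In siControl Ps, Mapre1 came first at 14.9, ahead of Mapre3 at 11.5 and Mapre2 at 9.72. The order depends on the gene model: per kilobase of the longest transcript, Mapre2, whose exons outside that transcript are long, came first in siControl CB at 22.1, ahead of Mapre3 at 18.8 and Mapre1 at 10.0, and Ckap5 came last at 1.92.

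The EB genes Mapre1 and Mapre3 are sister genes whose proportion to each other separated the fractions in the deposited values. The difference between fractions was smaller after removal of the trend with GC content and length, as given below. The windows from 250 bases before to 50 bases after their starts are shown here (RefSeq, build GRCm38.p6, plus strand, 5′ to 3′, chr2:153741037-153741336 for Mapre1 and chr5:30814391-30814690 for the upstream start of Mapre3). Capitals mark TCAAAG on either strand (CTTTGA when read on the other), the core that TCF and LEF factors bind, since APC limits beta-catenin, their partner.

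Mapre1: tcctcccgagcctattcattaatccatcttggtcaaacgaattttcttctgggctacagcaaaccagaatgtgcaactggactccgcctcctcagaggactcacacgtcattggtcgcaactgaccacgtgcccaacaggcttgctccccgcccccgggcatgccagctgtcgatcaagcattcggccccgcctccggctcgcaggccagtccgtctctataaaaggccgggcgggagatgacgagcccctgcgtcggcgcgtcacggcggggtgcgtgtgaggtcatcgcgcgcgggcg
Mapre3: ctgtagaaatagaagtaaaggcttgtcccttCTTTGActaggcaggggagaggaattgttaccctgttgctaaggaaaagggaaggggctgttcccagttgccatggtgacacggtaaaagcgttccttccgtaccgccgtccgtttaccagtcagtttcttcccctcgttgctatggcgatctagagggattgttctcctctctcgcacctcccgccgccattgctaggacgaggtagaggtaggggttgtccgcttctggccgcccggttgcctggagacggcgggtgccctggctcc

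The Mapre1 window held no match and was 62.3% G or C. The Mapre3 window held 1 match, on the minus strand from base 32, and was 56.7% G or C. Of the 10 windows available for 7 of the 9 genes, this was the 1 window with a match, where 5257 of 32851 windows of the same length held one. No window was available for Mapre2 or Clasp1, so these genes were not searched. A match describes the sequence and is no evidence of binding.

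Whether the RNAs of these factors differed between protrusions and cell bodies was asked first in control cells. Mapre1, Ckap5, Clip1, Clasp1 and Mapre2 were higher in Ps, by 1.12- to 1.59-fold, and none of the 9 was lower at an adjusted p below 0.05 (limma on all 13015 genes). Of all genes tested, 29.1% were called higher in Ps and 31.2% lower, so 5 of 9 called higher stands beside 29.1%, and 0 of 9 lower beside 31.2%. No member was lower at an unadjusted p below 0.05 either, and none passed as lower with weights recomputed from recovered reads. Other settings moved these counts and the shares of all genes beside them. With scaling to the total of listed reads 1 was higher and 2 lower, beside 15.4% and 47.6% of all genes. Without the 4 low-GC libraries 6 were higher and 2 lower, beside 30.7% and 31.6%. After removal of the trend with GC content and length 7 were higher and 0 lower, beside 28.7% and 25.9% of the 12875 genes with a known GC content and length. The median log2 change was 0.16 over the 9 genes and -0.0009 over all genes. By the rule the study used for enrichment in protrusions, a fold above 2 at an unadjusted p below 0.05, 7.19% of all genes were higher in Ps and none of the 9. Directions between fractions are relative to the other RNAs of each fraction: scaled instead to the total of listed reads, all genes moved in the median by -0.30 in siControl and by -0.16 in siAPC, and Mapre2 and Macf1 in siControl turned to -0.14 and -0.13. The amount of RNA per protrusion was not measured.

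Mapre1 encodes EB1, the EB protein through which APC binds plus ends. Its log2 level was 6.19, 6.14, 6.26 and 6.23 in siControl CB and 6.87, 6.85, 6.92 and 6.83 in siControl Ps. The groups did not overlap, and the SD was 0.05 in CB and 0.04 in Ps. Mapre1 rose by 0.66 on the log2 scale (SE 0.06, 1.59-fold, adjusted p = 1.04e-08), the lowest adjusted p of the 9, and stayed called under each of the 25 other settings run (log2 0.37 to 0.71). Same-numbered libraries differed by 0.60 to 0.71. Of all genes, 50.5% had siControl Ps and CB values that did not overlap, and 2 of the 9 members did, Mapre1 and Clasp1.

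Clip1 was at 5.50, 5.62, 6.07 and 5.48 in siControl CB and at 6.01, 6.32, 6.15 and 6.33 in siControl Ps. The groups overlapped only through CB replicate 3, 1 of the libraries with a negative GC trend, which exceeded Ps replicate 1. Clip1 rose by 0.53 (SE 0.12, 1.45-fold, adjusted p = 0.00112), and by 0.63 without the 4 low-GC libraries. With scaling to the total of listed reads it was 0.24 and did not pass (adjusted p = 0.19).

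Ckap5 was at 3.64, 3.66, 4.18 and 3.22 in siControl CB and at 4.15, 4.66, 4.07 and 4.09 in siControl Ps. Again CB replicate 3 lay above some Ps libraries and Ps replicate 2, another library with a negative GC trend, lay far above the rest of its group. Ckap5 rose by 0.57 (SE 0.18, 1.48-fold, adjusted p = 0.0118). The call was lost without siControl CB replicate 4 (0.42, adjusted p = 0.0571) or without siControl Ps replicate 2 (0.43, adjusted p = 0.0527), and without all 4 low-GC libraries the change was 0.60 (adjusted p = 0.000536). It did not pass with scaling to the total of listed reads either (0.27, adjusted p = 0.262).

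The CLASP proteins bind EB proteins and stabilize microtubules near the cell edge, and their RNAs differed in how clearly the fractions separated. Clasp1 was at 4.84, 4.67, 5.08 and 4.85 in siControl CB and at 5.15, 5.08, 5.19 and 5.25 in siControl Ps. The groups barely separated, since CB replicate 3 and Ps replicate 2 both stood at 5.08, and Clasp1 rose by 0.31 (SE 0.09, 1.24-fold, adjusted p = 0.00496), but with scaling to the total of listed reads it was 0.014 (adjusted p = 0.922). The rise was 0.61 (adjusted p = 4.28e-07) after removal of the trend with GC content and length. Without the 4 low-GC libraries it was 0.41 (adjusted p = 9.15e-05). Clasp2 was at 3.68, 3.69, 4.42 and 3.86 in siControl CB and at 3.78, 4.03, 3.90 and 3.93 in siControl Ps, with CB replicate 3 above every other library of both groups. The change of Clasp2 was -0.0002 (95% interval -0.32 to 0.32, adjusted p = 0.999), and 0.13 (adjusted p = 0.227) without the 4 low-GC libraries. A difference between Clasp1 and Clasp2 in this change was not tested.

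Among the remaining EB genes, Mapre2, which encodes EB2, was at 6.41, 6.42, 6.43 and 6.62 in siControl CB and at 6.53, 6.54, 6.74 and 6.72 in siControl Ps. CB replicate 4 lay among the Ps libraries, and the rise of 0.16 (SE 0.06, adjusted p = 0.0403) was lost when any 1 of siControl CB replicates 1, 2 or 3 or siControl Ps replicates 3 or 4 was left out (0.12 to 0.15). Mapre3, which encodes EB3, was at 5.71, 5.66, 5.25 and 5.46 in siControl CB and at 5.60, 5.46, 5.01 and 5.19 in siControl Ps. Every Ps library was below the CB library of the same number, by 0.11 to 0.27, but the groups overlapped widely and the change of -0.21 (SE 0.11, adjusted p = 0.128) did not pass. It passed without the 4 low-GC libraries (-0.35, adjusted p = 0.0204), without siControl CB replicate 3 (-0.30, adjusted p = 0.0276) and without siControl Ps replicate 1 (-0.30, adjusted p = 0.0293). It also passed with scaling to the total of listed reads (-0.50, adjusted p = 0.000214), but after removal of the trend with GC content and length it turned to 0.039 (adjusted p = 0.781).

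Macf1 and Ttl did not pass either. Macf1 ranged from 6.09 to 6.76 in siControl CB and from 6.19 to 6.59 in siControl Ps, with CB replicate 3 at 6.76 and the other CB libraries at 6.20 or below. Its change was 0.16 (SE 0.12, adjusted p = 0.250), and without CB replicate 3 it was 0.32 (adjusted p = 0.00355). It was also called higher without the 4 low-GC libraries (0.27, adjusted p = 0.00615) and after removal of the trend with GC content and length (0.38, adjusted p = 7.29e-06). Ttl ranged from 5.02 to 5.42 in siControl CB and from 5.08 to 5.25 in siControl Ps, with CB replicate 3 the lowest, and changed by -0.095 (SE 0.08, adjusted p = 0.298). It was called lower without CB replicate 3 (-0.18, adjusted p = 0.024) and without the 4 low-GC libraries (-0.17, adjusted p = 0.0379), whereas after removal of the trend with GC content and length it was called higher (0.25, adjusted p = 0.00182), so its direction between the fractions was not settled by these data.

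In siAPC cells the same comparison called Ckap5, Clip1 and Mapre1 higher in Ps and no member lower. Of all genes, 29.8% were called higher and 30.9% lower, so 3 of 9 was close to the share over all genes. None was higher by over 2-fold, as 7.67% of all genes were. Ckap5 was at 3.88, 3.99, 3.50 and 3.58 in siAPC CB and at 4.57, 4.97, 4.32 and 4.44 in siAPC Ps, without overlap, and rose by 0.83 (SE 0.18, 1.78-fold, adjusted p = 0.000668). Clip1 was at 5.64, 5.91, 5.47 and 5.42 in siAPC CB and at 6.15, 6.43, 6.17 and 6.17 in siAPC Ps, also without overlap, and rose by 0.62 (SE 0.12, 1.54-fold, adjusted p = 0.000298). Mapre1 was at 6.17, 6.34, 6.16 and 6.18 in siAPC CB and at 6.78, 6.92, 6.77 and 6.74 in siAPC Ps. These Mapre1 groups lay well apart, and the rise was 0.59 (SE 0.06, 1.503-fold, adjusted p = 6.17e-08). Each of these calls held under the 25 other settings run. Over them the log2 change ran from 0.37 to 0.67 for Mapre1, 0.46 to 0.89 for Clip1 and 0.66 to 0.92 for Ckap5. Values did not overlap for 4 of the 9, with Mapre2 the fourth, and for 58.6% of all genes.

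The other members of siAPC cells did not pass. Their log2 changes were 0.23 for Macf1, 0.16 for Clasp1, 0.13 for Clasp2, 0.12 for Mapre2, -0.08 for Ttl and -0.11 for Mapre3, with adjusted p from 0.110 to 0.467. Macf1 was higher in Ps in 4 of 4 same-numbered pairs, Mapre2 in 4 of 4 and Mapre3 in 0 of 4. Macf1 passed without the 4 low-GC libraries (0.23, adjusted p = 0.0180) and without siControl CB replicate 3 (0.23, adjusted p = 0.0192), which enters this contrast only through the shared estimate of spread. After removal of the trend with GC content and length, Macf1 (0.41), Clasp1 (0.43), Ttl (0.28) and Mapre2 (0.17) also passed, which made 7 of 9 higher, beside 25.6% of all genes. With scaling to the total of listed reads, Ttl (-0.23, adjusted p = 0.012) and Mapre3 (-0.26, adjusted p = 0.0275) were instead called lower, as were 39.3% of all genes. The median over the 9 was 0.16, beside 0.015 over all genes.

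The differences between same-numbered Ps and CB libraries are plotted for both siRNAs.

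**Figure D2:**
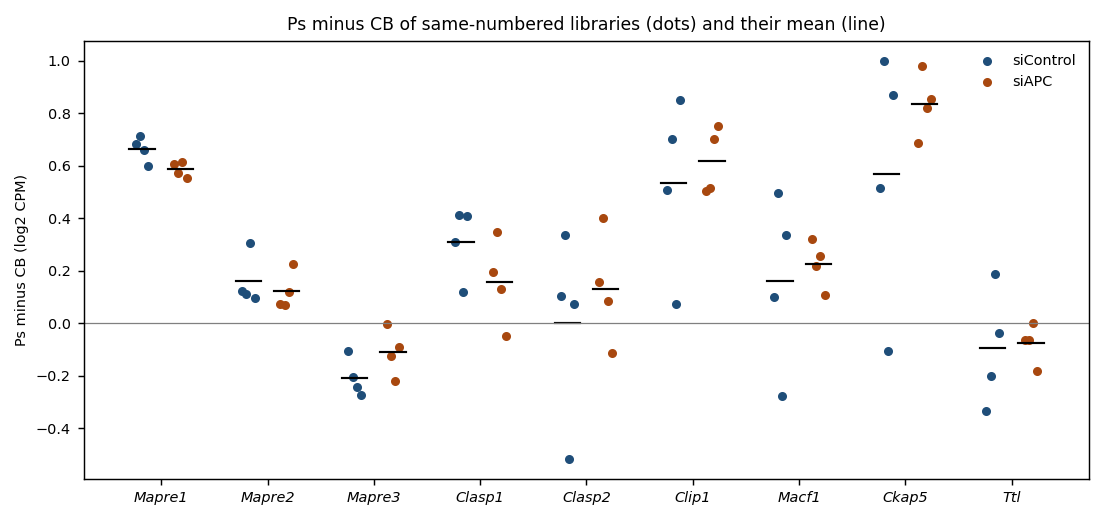
The vertical axis is Ps minus CB in log2 CPM of same-numbered libraries, the horizontal axis the 9 genes, each dot 1 pair and each line the mean of 4 pairs, in blue for siControl and brown for siAPC. All 8 pairs of Mapre1 lie between 0.55 and 0.71, all 8 pairs of Mapre3 lie below 0, and the siControl pairs of Ckap5 spread from -0.10 to 1.00.

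Whether the knockdown of Apc changed how these RNAs were divided between protrusions and bodies was tested by the interaction, Ps against CB in siAPC minus Ps against CB in siControl. None of the 9 passed, the lowest adjusted p was 0.981, none had an unadjusted p below 0.05, and none passed with weights recomputed from recovered reads. The same test called 0 of all genes higher and 0.0231% lower, with 492 of 13015 at an unadjusted p below 0.05. The intervals set how large a change could have been missed. For Mapre1 the interaction was -0.08 (95% interval -0.25 to 0.09), and for Mapre2 -0.04 (-0.23 to 0.15). After removal of the trend with GC content and length, that of Mapre1 was -0.22 (SE 0.13, adjusted p = 0.825, limma). For Ckap5 the interaction was 0.27 (-0.28 to 0.81) and for Clasp2 0.13 (-0.32 to 0.58), intervals that reach 1.75-fold and 1.497-fold. With 1 library left out at a time, the value of Ckap5 ran from 0.10 to 0.42. The interaction of Clasp1 was -0.15 (-0.41 to 0.11), and -0.32 (SE 0.10, adjusted p = 0.613) without the 4 low-GC libraries. That of Clip1 was 0.09 (-0.28 to 0.46), that of Mapre3 0.10 (-0.24 to 0.44), that of Macf1 0.06 (-0.29 to 0.42) and that of Ttl 0.02 (-0.21 to 0.25).

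What the knockdown did to the level of each RNA was compared within each fraction. Mapre2 was lower in siAPC cells in both fractions, to 75.8% of the control level in CB and 73.9% in Ps, and no other member passed in either. In CB, 7.52% of all genes were called higher and 5.87% lower, and in Ps 10.7% and 11.2%. With 1 of 9 called lower and 0 of 9 higher in each fraction, these counts rest on a single gene, Mapre2, and were not read as a share. No member was higher at an unadjusted p below 0.05, and none passed as higher with weights recomputed from recovered reads. The CB and Ps comparisons use different libraries, but a same-numbered Ps and CB library may come from the same cells, so they are not independent.

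EB2, the product of Mapre2, binds microtubules like EB1 and EB3 but shares fewer of their partners. In CB its RNA was at 6.41, 6.42, 6.43 and 6.62 in siControl and at 6.06, 6.08, 6.12 and 6.04 in siAPC. In Ps it was at 6.53, 6.54, 6.74 and 6.72 in siControl and at 6.13, 6.15, 6.24 and 6.26 in siAPC. Every siAPC library was below every siControl library of its fraction, a separation found for 20.9% of all genes in CB and 22.6% in Ps. The log2 change was -0.40 in CB (SE 0.06, 95% interval -0.54 to -0.26, adjusted p = 0.000284) and -0.44 in Ps (SE 0.06, -0.57 to -0.30, adjusted p = 6.96e-05). Over the 25 other settings the change ran from -0.42 to -0.35 in CB and from -0.49 to -0.27 in Ps, with adjusted p at most 0.00255 and 0.0134. Mapre2 was also neither the highest nor the lowest of its group in any of the 4 libraries with a negative GC trend. It held 1055 to 2006 reads a library.

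Mapre1 and Mapre3, the other EB genes, were close to their control levels. For Mapre1 the change was 0.01 in CB (95% interval -0.11 to 0.13) and -0.06 in Ps (-0.18 to 0.06). For Mapre3 it was 0.03 in CB (-0.21 to 0.27) and 0.13 in Ps (-0.11 to 0.37). The intervals of Mapre1 thus ran from 0.88- to 1.10-fold over both fractions, and those of Mapre3 were wider.

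Clasp2 had the next lowest values. It was at 3.43, 3.70, 3.44 and 3.57 in siAPC CB against 3.68 to 4.42 in siControl CB, and at 3.59, 4.10, 3.53 and 3.46 in siAPC Ps against 3.78 to 4.03 in siControl Ps. In CB the groups overlapped through siAPC replicate 2, and in Ps the siAPC library of replicate 2, with a negative GC trend, was above every siControl library. The change was -0.38 in CB (SE 0.15, adjusted p = 0.116, with an unadjusted p below 0.05) and -0.24 in Ps (SE 0.15, adjusted p = 0.289). Without the 4 low-GC libraries it was -0.26 in CB (adjusted p = 0.0618) and -0.35 in Ps (adjusted p = 0.00991), and after removal of the trend with GC content and length it passed in both (-0.32, adjusted p = 0.0185, and -0.30, adjusted p = 0.0205). Clasp1 was called lower in Ps without the 4 low-GC libraries (-0.22, adjusted p = 0.0286), where all libraries gave -0.12 (adjusted p = 0.389). It was also called lower after removal of the trend with GC content and length (-0.18, adjusted p = 0.0465). That call was lost when the replicate number was added as a block (adjusted p = 0.0735).

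Ckap5 was higher in siAPC Ps than in siControl Ps in 4 of 4 same-numbered pairs, by 0.24 to 0.42, but the groups overlapped and the change of 0.33 (SE 0.18, adjusted p = 0.225) did not pass. With the replicate number as a block, which pairs these libraries, the SE was 0.14 (adjusted p = 0.107), and with the block and removal of the trend with GC content and length Ckap5 was called higher (0.27, SE 0.08, adjusted p = 0.0264). Ttl was at 5.37, 5.25, 5.34 and 5.29 in siAPC Ps against 5.08, 5.14, 5.21 and 5.25 in siControl Ps. These groups separated only narrowly, the second member after Mapre2 to do so in Ps, and the change of 0.14 (SE 0.08, adjusted p = 0.212) did not pass. Macf1 changed by -0.18 in CB (-0.24 to -0.02 with 1 library left out at a time) and by -0.11 in Ps. Clip1 changed by -0.06 and 0.03, and adjusted p was 0.380 or more for both genes. Scaled to the total of listed reads, which moved the median gene of this Ps comparison by 0.16, Ttl (0.31) and Mapre3 (0.30) were called higher in siAPC Ps, as were 22.6% of all genes.

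The changes of all 9 RNAs upon knockdown are plotted for both fractions.

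**Figure D3:**
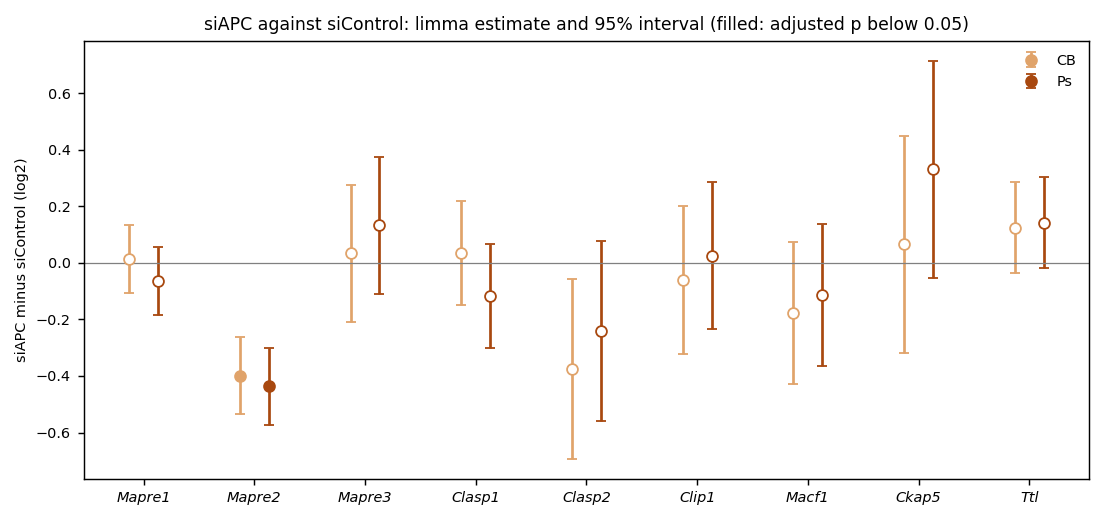
The vertical axis is siAPC minus siControl in log2 units, the horizontal axis the 9 genes, and points and bars are the limma estimate and its 95% interval in CB (light) and Ps (dark), filled where the adjusted p is below 0.05. The filled points are those of Mapre2, at -0.40 and -0.44, and the intervals of Ckap5 are the widest.

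Because 3 EB genes were measured in each library, their proportions could be read within a library, where scaling between libraries cancels. These proportions were computed after the values of the genes had been seen and are given as a description. In siControl the log2 level of Mapre1 minus that of Mapre2 was -0.39 to -0.18 in CB and 0.11 to 0.34 in Ps. In siAPC the same difference was 0.04 to 0.27 in CB and 0.48 to 0.77 in Ps. It was thus higher in every Ps library than in any CB library of the same siRNA, and higher in every siAPC library than in any siControl library of the same fraction. Mapre1 minus Mapre3 was 0.47 to 1.01 in siControl CB, 1.27 to 1.91 in siControl Ps, 0.54 to 0.80 in siAPC CB and 1.15 to 1.497 in siAPC Ps, so in the deposited values it separated the fractions and not the siRNAs. GC content (43.1% for Mapre1, 55.1% for Mapre3) need not cancel as scaling does. After removal of the trend with GC content and length, Ps against CB in siControl was 0.58 for Mapre1 and 0.04 for Mapre3, where the deposited values gave 0.66 and -0.21. In siAPC it was 0.37 and 0.15, where they gave 0.59 and -0.11. The gap between these genes thus narrowed with both siRNAs. Per exonic kilobase, Mapre1 made up 30.0% ± 2.43 of the 3 EB RNAs in siControl CB and 41.2% ± 1.96 in siControl Ps (SD, n = 4), Mapre2 27.7% ± 2.24 and 26.9% ± 2.98, and Mapre3 42.3% ± 4.24 and 31.9% ± 4.75. In siAPC the share of Mapre2 was 22.2% ± 0.663 in CB and 21.1% ± 1.57 in Ps. Per kilobase of the longest transcript, the CB share of Mapre2 was 43.3% ± 2.98 with siControl and 36.3% ± 0.864 with siAPC. The size of a share thus depends on the gene model, while the CB share of Mapre2 was lower with siAPC under both models. The slightly lower Mapre2 share of siControl Ps than CB was not seen per longest transcript, where Ps also stood at 43.3%.

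**Figure D4:**
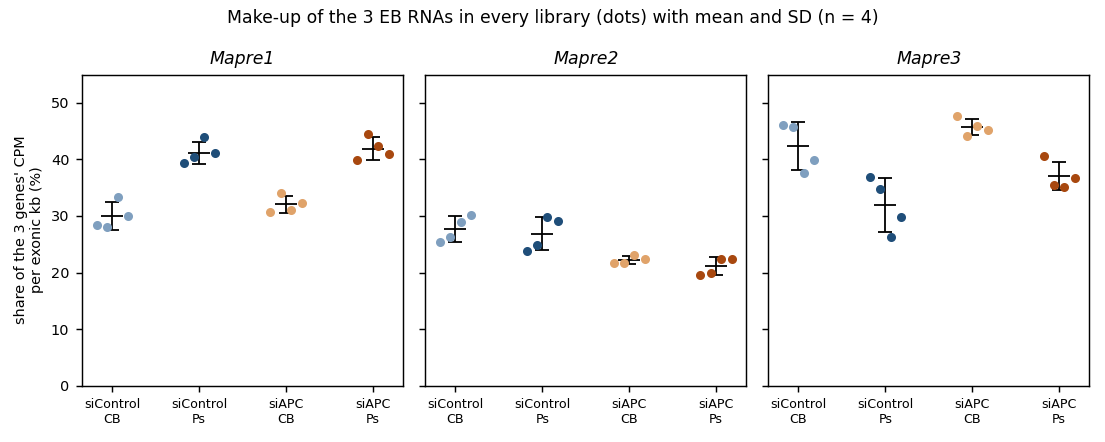
The vertical axis is the share of each EB gene in the summed CPM per exonic kilobase of the 3, in percent, the horizontal axis the 4 groups, each dot 1 library and the bars mean and SD (n = 4). Mapre1 goes from 30.0% in siControl CB to 41.2% in siControl Ps while Mapre3 goes from 42.3% to 31.9%, and Mapre2 lies at 21.1% to 22.2% in siAPC against 26.9% to 27.7% in siControl.

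Beside the groups, several members moved together from library to library. The deviations of a library from its group mean were correlated across 16 libraries, with r = 0.88 for Clasp2 and Macf1, 0.85 for Clasp1 and Clasp2, 0.83 for Clip1 and Macf1 and 0.81 for Clip1 and Ckap5. Clasp2, Macf1 and Ckap5 were each the highest of their group in all 4 low-GC libraries. Clip1 and Mapre1 were the highest in 3 of 4, and Ttl was the lowest in 3 of 4. GC content did not order the genes in this, since Mapre2 (47.67% G or C) was the highest in 0 of 4 and Clip1 (49.45%) in 3. Over the other 12 libraries r was 0.81 for Clasp2 and Macf1 and 0.71 for Clasp1 and Clasp2, but 0.36 for Clip1 and Macf1 and 0.38 for Clip1 and Ckap5. Mapre1 and Clip1, both higher in Ps, had r = 0.57 over the 16 and -0.50 over the 12. Mapre2 and Mapre3 moved against each other in both sets (-0.65 and -0.86). Transcript length also went with the deviations over all genes used, by a Spearman correlation of 0.42 in siControl CB replicate 3 and -0.43 in siControl Ps replicate 1. The correlations between members are descriptions of few libraries, in which GC content and length still varied in their relation to the values. Their parts were not tested.

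For each member the genes most like it in level over the 16 libraries were looked up among 8006 genes. They were Uchl3 and Zfp91 for Mapre1 (Pearson r 0.99 each), Mvd and Ppp4r1 for Mapre2 (0.95 each) and Man2a1 and Fnbp4 for Clasp2 (0.96 and 0.93). For Clip1 they were Fyttd1 and Smc3 (0.97 each), for Ckap5 Zranb1 and Cdc27 (0.97 each), for Macf1 Ankib1 (0.97) and for Clasp1 Msrb3 and Mtmr6 (0.91 and 0.89). Mapre3 and Ttl had weaker likeness, with Zdhhc16 and Zfp821 (0.88 each) and with Tollip and Rfng (0.87 and 0.85). No member was among another's nearest genes. The level of each pair follows the 4 groups as well as the libraries, so these values say nothing of shared control.

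The 9 genes were then set beside 4 lists of related genes, 74 of which were listed. Among 20 other plus-end tracking proteins, 2 were higher and 9 lower in siControl Ps, with a median of -0.16 against 0.16 for the 9 members, where 29.1% and 31.2% of all genes were called higher and lower. Those higher were Apc (0.92, SE 0.25, adjusted p = 0.00434) and Dst (0.71, SE 0.16, adjusted p = 0.000827), a relative of Macf1. The lowest were Stim1 (-1.08), a calcium sensor of the endoplasmic reticulum that rides on EB1, and Kif18b (-1.05), a mitotic kinesin.

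Among 16 cortical and leading-edge partners, which hold or signal to plus ends at the cell edge, 10 were higher and 2 lower in siControl Ps, with a median of 0.47. Kank2, which links talin to cortical complexes that capture microtubules, rose by 2.10 (SE 0.08, 4.29-fold) and Ppfia1, the liprin of the same complexes, by 1.43. Kank1 (-0.75) and Phldb1 (-0.44) were lower. The largest called member change in siControl was 0.66, for Mapre1. Kank2 was known to the study as localized and as dependent on APC, so its direction is not independent evidence.

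Among 17 enzymes of tubulin modification, the setting of Ttl, 5 were higher and 5 lower in siControl Ps, with a median of -0.06. Ccdc23, now named Svbp, the partner of the vasohibins that remove the tyrosine Ttl restores, rose by 1.01 (SE 0.08, 2.01-fold, adjusted p = 5.48e-09) in siControl and by 0.97 in siAPC. Atat1, which acetylates alpha-tubulin, was lower by -0.78. Neither Vash1 (0.79) nor Vash2 (-0.30) passed. Among 21 stabilizers, destabilizers and severing enzymes, 6 were higher and 8 lower, led by Map1b (1.07) and Mid1 (-1.06). After removal of the trend with GC content and length, the counts higher and lower were 8 and 5 for plus-end trackers, 12 and 0 for cortical partners, 7 and 2 for modification enzymes and 9 and 1 for the last list, beside 28.7% and 25.9% of all genes. Without the 4 low-GC libraries they were 3 and 8, 10 and 2, 6 and 5, and 6 and 6, beside 30.7% and 31.6%.

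Upon knockdown, 7 of the 20 other plus-end trackers were higher and 2 lower in CB, and as many in Ps, beside 7.52% and 5.87% of all genes in CB and 10.7% and 11.2% in Ps. Kif2c and Kif18b, kinesins with roles in mitosis, rose the most in this list, by 1.06 in CB and 1.33 in Ps and by 1.05 and 1.11, while Nav1 (-0.28 and -0.30) was lower beside Apc itself. Stmn1, a tubulin-sequestering protein, rose by 1.08 in CB and 1.16 in Ps. Of the 74 genes of these lists, 12 were higher and 2 lower in CB and 14 and 9 in Ps, and none passed the interaction test. After removal of the trend with GC content and length these counts were 11 higher and 7 lower in CB, beside 8.06% and 15.4% of all genes, and 15 and 17 in Ps, beside 10.5% and 22.2%. The interaction then called 2 of these genes lower, beside 0.0777% of all genes. In the deposited values the interaction of Kank2 was -0.63 (SE 0.12, adjusted p = 0.0835, limma), which did not pass here. The paper places Kank2 among its APC-dependent RNAs, by its own cutoffs on the difference and the p-value and by prior work. Absence of a call here thus does not mean that its enrichment in Ps was unchanged. Medians of the 4 lists upon knockdown lay between -0.05 and 0.08, as did those of the 9 members in CB (0.01), with -0.06 for the members in Ps.

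**Figure D5:**
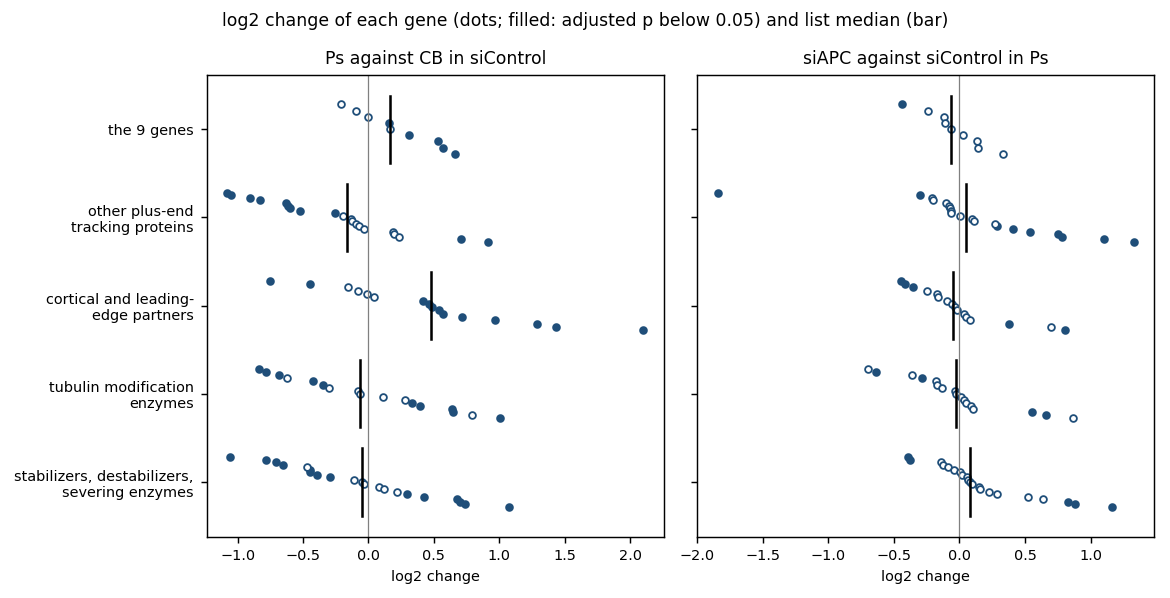
The horizontal axes are the log2 change of Ps against CB in siControl (left) and of siAPC against siControl in Ps (right), the rows the 9 genes and the 4 lists, each dot 1 gene, filled where the adjusted p is below 0.05, and each bar the median. Medians on the left are 0.16 for the 9 genes and 0.47 for cortical partners, and the filled dot of the 9 genes on the right is Mapre2.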

How the data were processed

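Per the labels and the study's methods, the authors aligned 16 libraries to mm10 with STAR 2.4.2a, counted reads per gene and normalized them with limma-voom 3.26.1. The deposited values are log2 CPM (reads plus 0.5, relative to a scaled library size) without weights. Inverting the formula gave whole reads (within 0.01 read) for 100% of values. Whether counting used strand is not given in the sources used here. Ckap5 contains Snord67, which was not listed. Raw reads were not used.

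Groups came from the labels. limma 3.58.1 in R 4.3.3 was fitted to all 13015 genes and 16 libraries, with 1 mean per group, an intensity trend and Benjamini-Hochberg adjustment, and calls used an adjusted p below 0.05. SE is that of the contrast. The scripts were tested on simulated data. The rule for named genes took the 9 members, Apc, the 2 highest and 2 lowest called changes per list, and the 2 genes most correlated with each member at a mean log2 value of at least 3, of which 1 for Macf1 is not reported here. Genes outside this rule (Vash1, Vash2) were named after their values were seen. Members and lists were chosen with earlier results of these data known.

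The labels number replicates alike in every group. How far each library lay from its group mean correlated between libraries of the same number at over 0.1 in 4 of 4 pairs for siAPC CB with Ps (mean r 0.50) and for Ps across siRNAs (0.34), and in 2 of 4 for siControl CB with Ps (0.13) and for CB across siRNAs (-0.03), so the numbers were taken to pair the former. No pair of replicates agreed within sampling noise (chi-squared per degree of freedom 1.96 to 25.3). The study calls the replicates independent, but the labels do not say that they came from separate cultures. If they did not, p-values measure technical spread only. Gene lengths and GC content came from GENCODE M21 (GRCm38), which is not the release the authors used. Alternatives are listed in the closing section.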

Additional observations from a re-analysis of the deposited data

Results flagged for a closer look

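In 5 of the 36 sets of 4 libraries (9 genes in 4 groups), 1 library stood far above the other 3, by a gap that exceeded Dixon's 95% critical value. Chance flags about 1 in 20 such sets, or 1.8 of 36. Mapre1 in siAPC CB reached 6.34 in replicate 2, with the next library at 6.18 (log2 CPM). Clip1 in siAPC Ps reached 6.43 in replicate 2, with the next at 6.17. Macf1 in siControl CB reached 6.76 in replicate 3, with the next at 6.20, and Ckap5 in siControl Ps reached 4.66 in replicate 2, with the next at 4.15. These 4 values come from the 4 libraries whose values fell with GC content, and the part of that trend in them was not tested. The last, Mapre2 in siControl CB, reached 6.62 in replicate 4, with the next at 6.43, in a library without the trend.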

How the results depend on the processing

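Each count of called members and each of the 45 log2 changes (9 genes in 5 contrasts) was recomputed under 25 alternatives: scaling to total listed reads, quantile normalization, voom weights from recovered reads, an offset of 2 reads, a filter at a mean log2 value of 1, a replicate block, a loess on GC content and length, both together, the 12 libraries left without the 4 in which values fell with GC content, and each of 16 libraries left out in turn. Of the 1125 log2 values, 1020 kept direction and side of the threshold, 38 became called (4 of them with the other sign) and 11 lost a call (1 of them with the other sign). In all, 61 changed sign. The Ps against CB calls of Mapre1 in both siRNAs and of Clip1 and Ckap5 in siAPC, and the calls of Mapre2 upon knockdown, held in all 25. Except where the alternative itself changes what is compared (another scaling, fewer libraries), the cause of a change was not tested.

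Scaled to total listed reads, Ps against CB in siControl had 1 member higher (Mapre1) and 2 lower (Mapre3, Ttl), with Mapre2 at -0.14 and Macf1 at -0.13, and in siAPC 2 were lower, with Mapre2 at -0.033 and Clasp2 at -0.023. The interaction was then 0.065 for Mapre1 and 0.10 for Mapre2, and in Ps upon knockdown 2 were higher, with Mapre1 at 0.099, Clasp1 at 0.046 and Macf1 at 0.050. With quantile normalization, 5 members were higher in siAPC Ps than CB, Ttl stood at 0.012 in siControl and 0.019 in siAPC, Clasp2 at 0.035 in siControl, and the interaction of Mapre2 at 0.020. An offset of 2 reads put Clasp2 at 0.0025 in siControl.

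With GC content and length fitted by loess, alone or with the replicate block, 7 members were higher in siAPC Ps than CB, and Ps against CB was 0.039 for Mapre3 and 0.25 for Ttl in siControl and 0.15 for Mapre3, -0.0067 for Clasp2 and 0.28 for Ttl in siAPC. Upon knockdown 2 members were lower in CB, with Mapre3 at -0.083 and Clasp1 at -0.0076, and in Ps 3 were lower (2 lower and 1 higher with the block), with Clip1 at -0.048. Without the 4 libraries with a negative GC trend, 2 members were lower in siControl Ps than CB and 3 were lower upon knockdown in Ps, Clasp2 was at 0.13 in siControl, the interaction was -0.087 for Clasp2 and -0.045 for Macf1, and the change upon knockdown was -0.012 for Mapre1 and -0.054 for Mapre3 in CB and -0.0001 for Clip1 in Ps.

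The replicate block alone called 1 member lower in siControl Ps than CB, Mapre3 (-0.21, adjusted p = 0.00907), where numbers did not pair the libraries. It changed no other call. At a fold above 2 with an unadjusted p below 0.05, 0 members were called higher in Ps in either siRNA and 0 lower upon knockdown in either fraction. At a fold above 1.5, 1 member was higher in siControl Ps (Mapre1) and 0 were lower upon knockdown in either fraction.

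Leaving out 1 library at a time, members lower in siControl Ps than CB numbered 0 to 2 (the higher count without siControl CB replicate 3), and members higher 4 to 5. The value crossed 0 for Clasp2 in Ps against CB (-0.077 to 0.17 in siControl, -0.011 to 0.20 in siAPC) and for 5 interactions: Mapre3 (-0.0033 to 0.19), Clasp2 (-0.036 to 0.21), Clip1 (-0.049 to 0.19), Macf1 (-0.094 to 0.13) and Ttl (-0.031 to 0.10). Upon knockdown in CB it crossed 0 for Mapre1 (-0.030 to 0.032), Mapre3 (-0.057 to 0.095), Clasp1 (-0.027 to 0.11), Clip1 (-0.16 to 0.074) and Ckap5 (-0.087 to 0.23), and in Ps for Clip1 (-0.041 to 0.068), none of them called. With 171 to 495 reads a library, Clasp2 was among the least deeply read members, and its intervals were among the widest.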
